A study of Mus musculus with 12 samples.

Results

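The endocannabinoid receptors and enzymes described here are the cannabinoid receptor genes Cnr1 and Cnr2, the breakdown enzymes Faah and Mgll and the synthesis enzyme Napepld. Their 5 genes were chosen by name among the 28307 gene names of the array, and every non-control probe that carried one of the names was taken, which gave 10 probes. Hypothalamic RNA of male ICR mice was hybridized to 12 Agilent arrays with 1 dye, and each array held a pool of RNA from 1 to 3 mice. All mice were 3 weeks old at the start and drank water from both tubes on days 1 to 5. The 9 mice of the water group then kept water in both tubes and gave 3 pools of 3. In the cages of the 19 alcohol mice, 1 tube held 5% or 10% alcohol and the other held water, and these mice gave 9 pools, labelled as low, early high and late high alcohol drinkers with 3 pools each. The labels do not give the intake behind these names, a pool may mix the alcohol strengths, and the day of sacrifice is 51 in the sample labels and 57 in the series design. No mouse carried an engineered allele by the labels.

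The arrays lay on 3 slides. All water pools shared slide 1 with pool 1 of the low drinkers, and this slide was scanned later, on another day. On slide 2 were the other pools of low drinkers (2 and 3) and pools 1 and 2 of the early high drinkers. Pool 3 of the early high drinkers was placed on slide 3 beside all pools of late high drinkers. The share of spots well above background ran from 67.0% to 79.3% per array, and the number of arrays limits the precision of each value. The lower quartile of the signal was 63.2 on the array of low drinker pool 2 and between 22.3 and 34.0 on the others, so dim probes read higher on that array. Of 10 genes that mark hypothalamic neurons, such as Pmch, Hcrt and Avp, 9 were well above background on every array and the remaining one, Sim1, on 11.

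Endocannabinoids are lipid messengers that neurons make on demand from membrane phospholipids and that act backward across the synapse. The main ones are anandamide, which NAPE-PLD can release from its precursor and which the enzyme FAAH degrades, and 2-arachidonoylglycerol, which diacylglycerol lipases make and monoacylglycerol lipase (MGLL) degrades. They activate the receptor CB1 (Cnr1), which lowers transmitter release at nerve terminals, and CB2 (Cnr2), which is known mainly from immune cells. In the hypothalamus the system is known for its part in feeding and in restraining the stress axis.

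The probes are 60 bases long, and a probe reports the transcript only where its own bases lie. Sequences are shown for 1 probe of each of the 4 genes that were well above background on all arrays, so that it can be seen which stretch of the message each value stands for. They are written 5′ to 3′ in the sense of the transcript, and no base is marked. Positions are in mm9, as the array files give them. The Cnr1 probe lies at chr4:34031372-34031431 on the plus strand. The Faah probe runs over chr4:115671183-115671447 on the minus strand, 265 bases of genome for 60 bases of probe, so it crosses an intron. The Mgll probe printed here crosses an intron too, over chr6:88773375-88775678 on the plus strand, and is the dimmer of the tested Mgll probes, called the second Mgll probe below. The brighter one lies at chr6:88778286-88778345. The Napepld probe lies at chr5:21169333-21169392 for the brighter of its probes and at chr5:21171101-21171160 for the one printed, the second below, both on the minus strand.
Cnr1: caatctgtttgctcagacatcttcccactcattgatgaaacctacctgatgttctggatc
Faah: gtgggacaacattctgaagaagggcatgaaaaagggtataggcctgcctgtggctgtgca
Mgll: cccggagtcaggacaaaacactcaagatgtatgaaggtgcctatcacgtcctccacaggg
Napepld: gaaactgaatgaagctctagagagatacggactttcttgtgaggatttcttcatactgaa

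The remaining probes were a second one for Faah at chr4:115669624-115669683 and a pair for Cnr2 at chr4:135475040-135475099 and chr4:135475595-135475654 on the plus strand. A further Mgll probe, at chr6:88716583-88716642, matches a testis cDNA. It cleared the background on 0 of the 12 arrays, with a signal between 4.31 and 11.3, and was not tested, so 9 of the 10 probes were tested. The annotation of exons and untranslated regions in mm9 was not used here. Where a gene had several tested probes, the one with the highest mean over the 12 arrays is called the main probe. All levels below are log2 signals relative to the 75th percentile of their own array, and levels are compared only between arrays for the same probe.

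Across all alcohol pools, none of the 5 genes was separated from water. At an unadjusted p under 0.05, limma called 0 of the 9 member probes in alcohol against water, where it called 5.52% of all 32371 tested probes. At an adjusted p under 0.05 it called 0 member probes and 0 probes in all. The adjusted p-values of the member probes lay between 0.819 and 0.996. At an unadjusted p under 0.05 the methods' t-test also gave 0 member probes, and the t-test for unequal variances gave 1, the main probe of Napepld. Over the alternatives, which include these t-tests, the count of all probes at that threshold ran from 513 to 3666. The median difference of the 9 member probes was 0.06 and that of all tested probes was 0.03. Of the 9 differences, 8 were above 0. With slide as a block, which leaves pool 1 of the low drinkers as the only array to set against the 3 of water, 8 of the 9 were below 0. In bulk tissue, fewer cells that express a gene and less RNA per cell cannot be told apart.

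**Figure D1:**
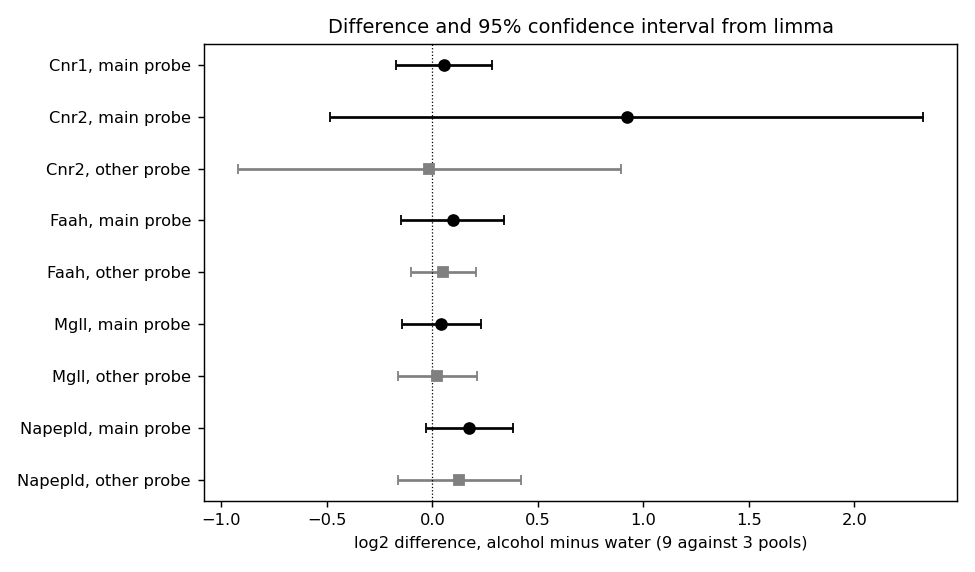
Log2 difference between 9 alcohol and 3 water pools for each tested probe of the 5 genes, with the 95% confidence interval from limma. Black circles are main probes and grey squares are other probes. Every interval includes 0, and those of the Cnr2 probes, between -0.92 and 2.33 at their ends, are the widest. The other Cnr2 probe was well above background on 4 of the 12 arrays, so its value is mostly read near background.

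Cnr1, which encodes the CB1 receptor of nerve terminals, had 1 probe. Its levels were -1.89, -1.80 and -1.72 in the water pools. In low drinkers they were -1.92, -1.58 and -1.77. Early high drinkers had -1.50, -1.49 and -1.86, and late high drinkers had -1.87, -1.86 and -1.88. The highest values were those of early high drinker pools 1 and 2 and of pool 2 of the low drinkers, all on slide 2, and the 4 arrays of slide 3 lay within 0.02 of each other. Alcohol pools averaged -1.75 ± 0.17 (SD of 9 pools) and water pools -1.80 ± 0.08 (SD of 3 pools), a difference of 0.06 (95% interval -0.17 to 0.28, exact 2-sided permutation p = 0.618). As a fold this interval runs from 0.888 to 1.22. With 1 array left out at a time the difference ran from 0.01 (without water pool 1) to 0.10 (without water pool 3). By group mean the order was early high, low, water and late high, and no pair of neighbours in that order differed by more than the larger of their SDs.

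In late against early high drinkers, Cnr1 differed by -0.25 on the log2 scale (95% interval -0.50 to -0.00178, limma adjusted p = 0.399). The 3 late pools lay below the 3 early pools, and the exact permutation p of 0.1 is the smallest that 3 arrays against 3 allow. At an unadjusted p under 0.05, limma called 2 of 9 member probes in this comparison (Mgll rose and Cnr1 fell), against 12.4% of all 31611 probes tested. The call of Cnr1 stood in 7 of 25 alternatives and was absent by the methods' t-test, and that of Mgll stood in 24. Within slide 3, the late pools differed from early high drinker pool 3 by -0.01, and with slide as a block the difference was -0.01 (adjusted p = 0.997). Of the 59 cell and tissue markers tested, 6 rose and 5 fell in this comparison at an unadjusted p under 0.05. Those that fell included 2 of 5 markers of the striatum, a region rich in Cnr1, whose mean level was between -1.32 and -0.88 in early high and between -1.32 and -1.29 in late high drinkers, and 1 of 4 immune and blood markers. Those that rose included 2 of 5 pituitary markers and 1 of 4 thalamic ones. Over the 12 arrays, which share slides, Cnr1 had r = 0.73 with the striatal, 0.48 with the immune and blood, -0.40 with the pituitary and -0.34 with the thalamic mean. The part of the slides and of these markers in the Cnr1 and Mgll differences was not tested.

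**Figure D2:**
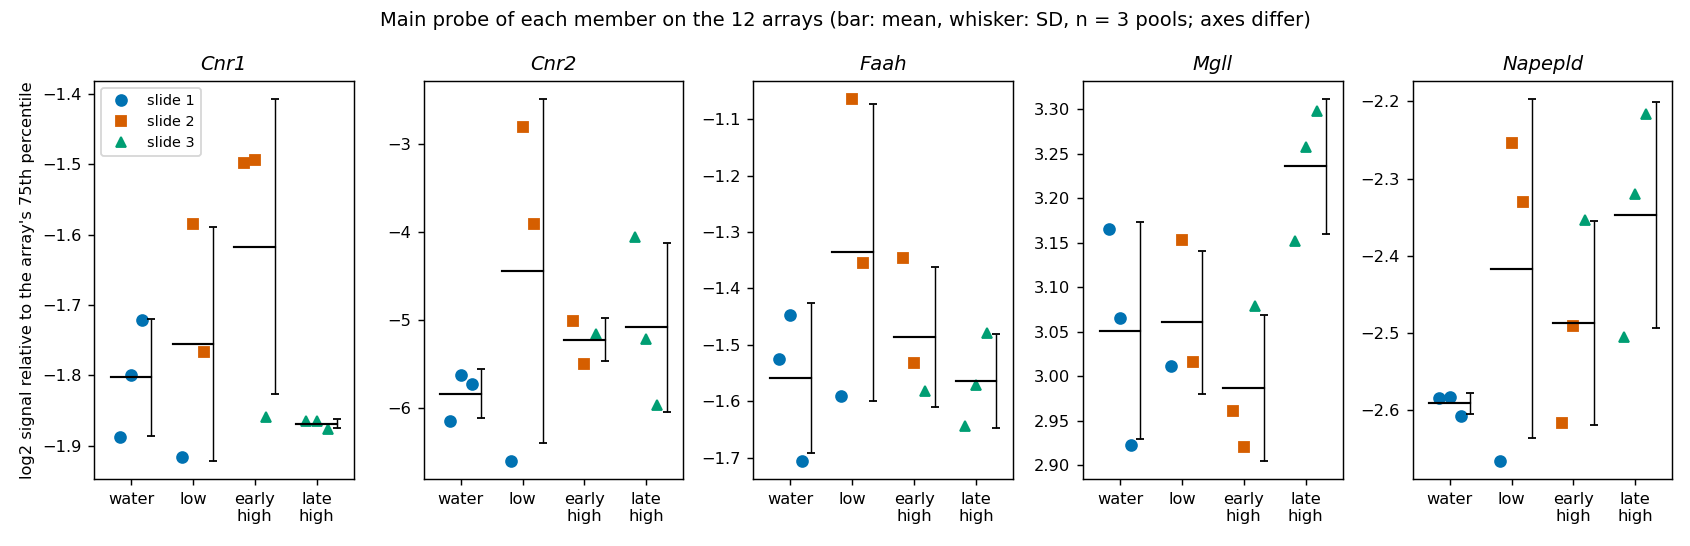
Level of the main probe of each gene on every array, as log2 signal relative to the 75th percentile of the array, by group. Colour and shape give the slide, bars the mean and whiskers the SD of 3 pools, and the vertical axes differ. Cnr1 levels of -1.50 and -1.49 in early high drinkers come from slide 2, and the pool at -1.86 shares slide 3 with the late high drinkers.

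Cnr2, which encodes the CB2 receptor, was near the background of the arrays. On the water arrays its main probe stood well above background 2 times in 3, and on the alcohol arrays 6 times in 9. For its other probe this was 1 in 3 and 3 in 9. Water pools had -6.15, -5.63 and -5.74 for the main probe. The low drinkers had -6.61, -2.81 and -3.92, the early high drinkers -5.02, -5.50 and -5.16, and the late high drinkers -4.06, -5.22 and -5.97. Low drinker pools 2 and 3, on slide 2, stood above the rest, and low drinker pool 1, on slide 1, was the lowest of all 12. The arrays of low drinker pools 2 and 3 also had the highest lower quartiles of signal, 63.2 and 34.0. The part of this in the dim Cnr2 values was not tested. The difference between alcohol and water was 0.92 with a 95% interval of -0.48 to 2.33, or 0.715-fold to 5.02-fold (exact 2-sided permutation p = 0.209). Early high drinkers were the group whose 3 arrays all lay above the 3 water arrays, by 0.61 (limma adjusted p = 0.926, exact permutation p = 0.1). With slide as a block this difference turned to -2.67 (adjusted p = 0.599) and with scan day to -2.63 (adjusted p = 0.439), and both were under an unadjusted p of 0.05.

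The other Cnr2 probe, 555 bases away, was well above background on 4 of 12 arrays, too few to set it against the main one. Its levels in low drinker pools 2 and 3 were -5.93 and -5.53, against -5.71, -5.51 and -6.16 in water, and in low drinkers it did not clear the background once, so no fold is given against that group. Microglia, a resident immune cell of the brain, were measured with 6 markers, all well above background on every array. The mean level of these markers was between -0.33 and -0.26 in water and between -0.35 and -0.29 in low drinkers, and its correlation with the main Cnr2 probe was r = -0.34 over the 12 arrays. The B cell markers Ms4a1 and Cd79a were well above background on 1 and 3 of 12 arrays.

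**Figure D3:**
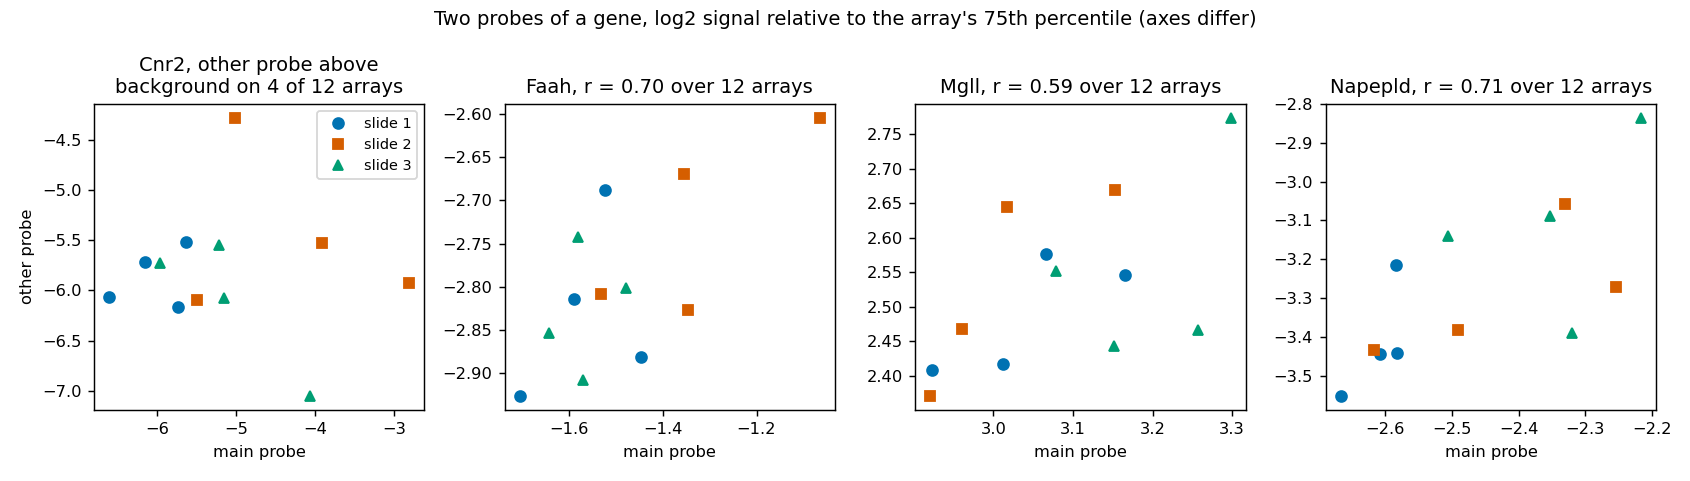
Main probe against the other tested probe of Cnr2, Faah, Mgll and Napepld on 12 arrays, as log2 signals relative to the 75th percentile of each array, with colour and shape for the slide and axes that differ. The probes of Faah, Mgll and Napepld rise together (r between 0.59 and 0.71), and the other probe of Cnr2 was well above background on 4 of the 12 arrays.

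Faah encodes the hydrolase that ends the action of anandamide. Its main probe read -1.52, -1.45 and -1.71 in water. Low drinkers had -1.59, -1.06 and -1.35, early high drinkers -1.35, -1.53 and -1.58, and late high drinkers -1.64, -1.57 and -1.48. Low drinker pool 2 was the highest of the 12, and the groups overlapped. Alcohol and water differed by 0.10 (95% interval -0.15 to 0.34, or 0.903-fold to 1.27-fold, exact 2-sided permutation p = 0.445). Without water pool 3 this was 0.02, and without water pool 2 it was 0.15. Low drinkers differed from water by 0.22 (adjusted p = 0.653), which was 0.09 without low drinker pool 2, 0.35 without pool 1 and -0.03 with slide as a block. Late high drinkers differed from water by -0.01 (adjusted p = 0.990), a value whose sign turned without scaling between arrays. With slide as a block this value was -0.24, and its lowest over all alternatives was -0.39. The second Faah probe gave 0.05 (95% interval -0.10 to 0.21) in alcohol against water, and the probes had r = 0.70 over 12 arrays.

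In more against less alcohol, which sets the 6 high drinker pools against the 3 low drinker pools, limma called 0 of 9 member probes at an unadjusted p under 0.05, with 14.7% of all probes, and 0 at an adjusted p under 0.05, with 0.0221%. The methods' t-test gave 1 member probe at an unadjusted p under 0.05, the second of Faah. Over the alternatives, which include this t-test, the count of all probes at that threshold ran from 2621 to 8323. The main Faah probe was lower in high drinkers by -0.19 (95% interval -0.44 to 0.06, adjusted p = 0.437, exact permutation p = 0.179) and the second by -0.13 (adjusted p = 0.397, exact permutation p = 0.0476). All 6 high drinker pools lay below the mean of the low drinkers on both probes. Low drinker pool 1, the one on slide 1, lay at -1.59 beside the high drinkers. Without it, the differences were -0.32 and -0.19 and the unadjusted count was 3 of 9 member probes, both of Faah and the main one of Cnr2, beside 25.2% of all probes. Among members the Cnr2 probe alone then passed the adjusted threshold (-1.79, limma adjusted p = 0.0445, against -0.71 and 0.638 with all arrays), as did 8.38% of all probes. Without low drinker pool 2, the main Faah probe differed by -0.05 (adjusted p = 0.914) and Cnr2 by 0.11 (adjusted p = 0.979). On slide 2 alone, the 2 early high drinker pools differed from the 2 low drinker pools by -0.23 for the main Faah probe and -0.18 for the second. Markers of neighbouring tissue moved in the same comparison. All 5 pituitary markers fell at an unadjusted p under 0.05, and the mean of the 3 that had a value on every array lay between -0.21 and -0.12 in low drinkers and between -2.58 and -0.34 in high drinkers. Of 5 striatal markers 2 fell, with means between -1.12 and -0.88 in low and between -1.32 and -0.88 in high drinkers. The main Faah probe had r = 0.07 with the pituitary and 0.62 with the striatal mean over the 12 arrays, and their part in the Faah difference was not tested.

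Mgll, which encodes the main enzyme that degrades 2-arachidonoylglycerol, was among the bright probes, with signals between 11776 and 18224 for its main probe. Water pools had levels of 3.17, 3.07 and 2.92. The low drinkers had 3.01, 3.15 and 3.02, the early high drinkers 2.96, 2.92 and 3.08, and the late high drinkers 3.15, 3.26 and 3.30. The late high pools held 2 of the 3 highest values, and their lowest, 3.15, lay inside the range of water. Alcohol and water differed by 0.04 (95% interval -0.14 to 0.23, or 0.904-fold to 1.17-fold, exact 2-sided permutation p = 0.636). Its order by group mean was late high, low, water and early high, and only the gap between late high and low drinkers, 0.18, was larger than the SDs of the neighbours.

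Late high drinkers were the group in which Mgll differed most from water, by 0.18 (1.14-fold, 95% interval 1.00 to 1.29, limma adjusted p = 0.298, exact permutation p = 0.200). Without water pool 3 it was 0.12. The main Mgll probe was the single member probe at an unadjusted p under 0.05 in this comparison, where 15.9% of all probes were, and no probe passed the adjusted threshold. This call stood in 8 of 25 alternatives, and the methods' t-test gave the main probe of Napepld in its place. Against early high drinkers, which share no array with water, the difference was 0.25 (1.19-fold, adjusted p = 0.325), the late and early pools did not overlap, and the exact permutation p was again 0.1. On slide 3 the late pools lay 0.16 above early high drinker pool 3. With slide as a block, late high drinkers differed from water by -0.03 (adjusted p = 0.980) and from early high drinkers by 0.16 (adjusted p = 0.964).

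The second Mgll probe showed less. Its water levels were 2.55, 2.58 and 2.41, and its late high levels were 2.44, 2.47 and 2.77. Late pools 1 and 2 lay within the range of water on this probe and only pool 3 was above it, so that the late high difference from water was 0.05 (adjusted p = 0.858) and that from early high drinkers was 0.10 (adjusted p = 0.743). Of all 59 cell and tissue markers tested, 5 rose and 8 fell in late high drinkers against water at an unadjusted p under 0.05, and none passed the adjusted threshold. The mean level of 4 thalamic markers was between -0.10 and 0.02 in water and between -0.05 and 0.92 in late high drinkers, and 1 of the 4, Tcf7l2, rose at an unadjusted p under 0.05. Of 6 oligodendrocyte markers, 2 rose, with means between 3.80 and 3.89 in water and between 3.78 and 4.06 in late high drinkers. Those that fell included 2 of 5 pituitary, 2 of 5 striatal and 2 of 4 immune and blood markers. Over the 12 arrays the main Mgll probe had r = 0.61 with the thalamic, -0.57 with the striatal, 0.51 with the astrocyte, -0.50 with the immune and blood and 0.42 with the oligodendrocyte mean, and their part in the Mgll difference was not tested.

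Napepld encodes the phospholipase that releases anandamide and its relatives from their precursors. Its main probe had the narrowest water values of all members, -2.58, -2.58 and -2.61. Low drinkers had -2.67, -2.25 and -2.33, early high drinkers -2.62, -2.49 and -2.35, and late high drinkers -2.51, -2.32 and -2.22. Of the 9 alcohol pools 7 lay above all of the water values, and 2 lay below them, pool 1 of the low drinkers and pool 1 of the early high drinkers. The difference was 0.17 ± 0.09 (SE; 95% interval -0.03 to 0.38, or 0.978-fold to 1.30-fold, exact 2-sided permutation p = 0.109, limma adjusted p = 0.819). The second probe gave 0.13 (95% interval -0.17 to 0.42), with r = 0.71 between the probes.

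All 3 late high drinker pools exceeded the water pools in Napepld, by 0.24 on average (adjusted p = 0.344, exact permutation p = 0.1, the smallest possible). The difference turned to -0.33 with slide as a block and to -0.13 with scan day. Of the 4 thalamic markers described above, 1 rose in the same comparison, with a median difference of 0.41, and their mean had r = 0.77 with the main Napepld probe over the 12 arrays. Their part in the Napepld difference was not tested. Low drinkers differed from water by 0.18 (adjusted p = 0.712; 0.30 without pool 1 and 0.09 without pool 2) and early high drinkers by 0.10 (adjusted p = 0.914; 0.17 without pool 1 and 0.04 without pool 3), contrasts that share the water arrays. On slide 1, low drinker pool 1 differed from water by -0.08. The slide means of the main probe were -2.61, -2.42 and -2.35, a largest gap of 0.26 next to an SD of 0.12 within slides. The group and the slide cannot be fully told apart here, since no water pool lay on slide 2 or 3. Its order by group mean was late high, low, early high and water, and no neighbours differed by more than the larger of their SDs.

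**Figure D4:**
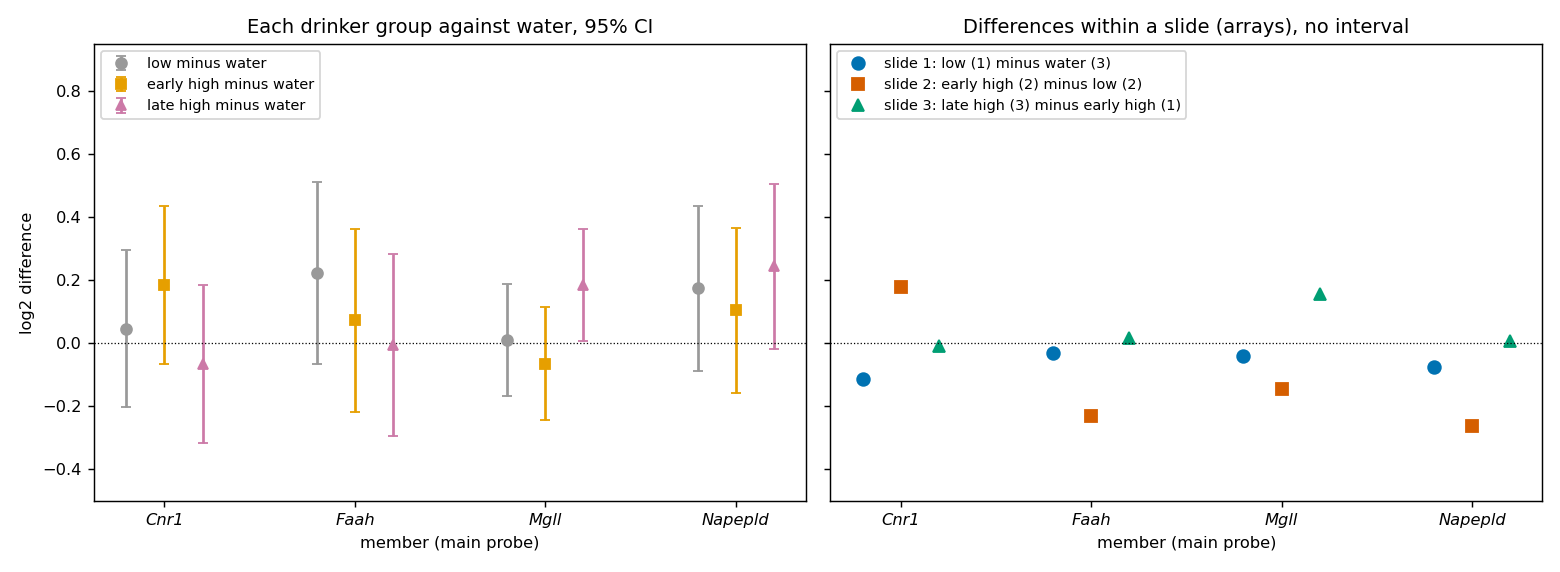
Left, log2 difference of each drinker group from water for the main probes of 4 genes, with 95% confidence intervals from limma, 3 pools a group. Right, differences between groups on the same slide, with the number of arrays in the legend and no interval. The interval of Mgll in late high drinkers starts at 0.0067, and the intervals of the other 11 differences include 0.

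For the drinker groups as a whole, limma called 0 of 9 member probes in low drinkers against water at an unadjusted p under 0.05, beside 9.06% of all probes, and 0 at an adjusted p under 0.05, beside 0.218%. In early high drinkers it called 0 member probes beside 4.71% of all probes at an unadjusted p under 0.05. The methods' t-test gave 0 in low and 1 in early high drinkers, the latter the main probe of Cnr2. Over the alternatives, which include this t-test, the count of all probes at that threshold ran from 749 to 6700 and from 755 to 3504. In early high drinkers 4 of 5 pituitary markers fell and 1 of 6 oligodendrocyte markers rose at that threshold, of 59 markers tested. Their part in the Cnr2 difference was not tested. Without low drinker pool 1, low drinkers had 4 of 9 member probes at an unadjusted p under 0.05, both Faah probes and the main probes of Napepld and Cnr2, beside 21.2% of all probes. Cnr2 moved from a difference of 1.39 (adjusted p = 0.658) to 2.48 (adjusted p = 0.0175), and 8.9% of all probes then passed the adjusted threshold. Without low drinker pool 2 the Cnr2 difference was 0.58 (adjusted p = 1.00). The 2 pools that remain without pool 1 lay on slide 2 and the water pools on slide 1, so group and slide cannot be told apart in that contrast.

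How much the members varied at all can be set beside the array as a whole. Over the 12 arrays the SD of the main probe was 0.15 for Cnr1, 0.17 for Faah, 0.12 for Mgll and 0.16 for Napepld. The median SD of the 26040 probes well above background on all arrays was 0.13. Cnr2, with an SD of 1.07, exceeded 99.9% of those probes, which are brighter. For Cnr1 the SD fell from 0.15 over all arrays to 0.09 within slides, and the mean of slide 2 was -1.59 beside -1.83 and -1.87 on slides 1 and 3.

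Between members of different genes, the highest correlation over the 12 arrays was that of Cnr2 and Faah, at r = 0.65, which was 0.48 after the slide means were removed. Cnr2 and Napepld had 0.51 and 0.29. Mgll and Faah had r = 0.11 over the 12 arrays and 0.79 with slide means removed. Mgll and Napepld had 0.62 and 0.63, and Faah and Napepld 0.42 and 0.62. Cnr1 and Mgll ran the opposite way, at -0.56 and -0.39. These values describe 12 arrays that share slides, labelling and depth of signal, and carry no test.

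Among 22055 probes of other annotated genes that were well above background on all arrays, the profiles most like that of each member over the 12 arrays were found by Pearson's r. For Mgll they were Fbxl20 (r = 0.97), Zfp7 (0.94) and Fbxo31 (0.91). For Faah they were Slc16a13 (0.97), Mx2 (0.96) and Asb1 (0.96). Cnr1 was like Bbx (0.93) and Galntl6 (0.93), which stood at 0.74 and 0.86 once slide means were removed. Napepld was most like Klf13 (0.94), Slc12a8 (0.94) and Kctd3 (0.93), and the dim Cnr2 probe like Lat, 1700028P14Rik and Mitf (0.95 to 0.96). With so many probes and 12 arrays, high values of r are given as a description only.

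The rest of the pathway was read from a list of 38 genes by role, of which 37 were found by name and 34 could be tested. In alcohol against water 2 rose and 1 fell at an unadjusted p under 0.05, or 3 of 34 beside 5.52% of all probes, and none passed the adjusted threshold. The median difference of the 34 was 0.04 beside 0.03 for all probes. Among 12 synthesis genes 1 rose, Plcb4, a phospholipase C that can supply diacylglycerol, by 0.26 ± 0.12 (SE, adjusted p = 0.819), a difference that turned to -0.21 with slide or scan day as a block. The diacylglycerol lipases Dagla and Daglb, which make 2-arachidonoylglycerol, differed by 0.07 ± 0.11 and 0.06 ± 0.06. Abhd4 and Gde1, which serve a route to anandamide without NAPE-PLD, differed by -0.04 ± 0.06 and -0.05 ± 0.07.

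Among 6 tested breakdown genes 1 rose, Ptgs2, the cyclooxygenase that can oxidize both endocannabinoids, by 0.90 ± 0.27 (adjusted p = 0.819), which was 0.26 after normexp background correction and 0.28 after quantile normalization. The probe was dim: water pools lay between -6.99 and -6.24 and alcohol pools between -6.51 and -5.00, and it cleared the background on all 3 water arrays and on 5 of the 9 alcohol arrays. Abhd6, which hydrolyses 2-arachidonoylglycerol beside MGLL, differed by 0.11 ± 0.06, Abhd12, which does the same, by -0.07 ± 0.07, and Naaa, a lysosomal hydrolase of anandamide's relatives, by 0.05 ± 0.09. Of 6 transport and partner genes 1 fell, Fabp7, a fatty acid binding protein of astrocytes and their precursors that can carry endocannabinoids, by -0.54 ± 0.22 (adjusted p = 0.819). With slide or scan day as a block this was -0.09. Fabp7 water pools lay between 3.16 and 3.39 and alcohol pools between 2.15 and 3.36, so the groups overlapped. Fabp5, a carrier of the same family, differed by -0.03 ± 0.20 and Cnrip1, a protein that binds the tail of CB1, by 0.07 ± 0.05. None of the 4 other receptors and 6 Gi/o partners tested was called. Gpr55, a further receptor for lipids of this kind, did not clear the background on a single array, and no probe was found by name for Trpv1.

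**Figure D5:**
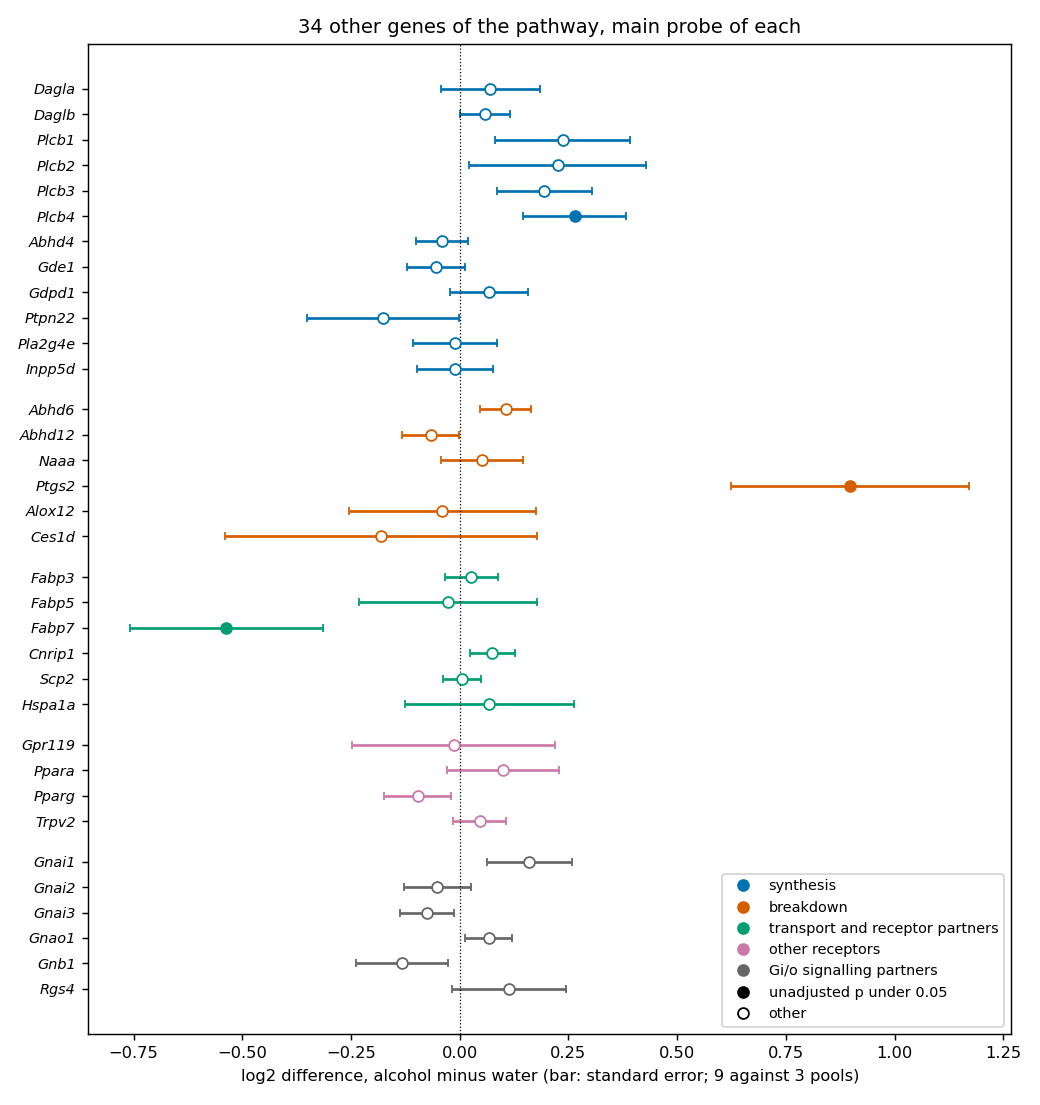
Log2 difference between alcohol and water, with its standard error, for the main probe of 34 tested pathway genes in 5 roles. Filled circles mark an unadjusted p under 0.05, which Plcb4 (0.26), Ptgs2 (0.90) and Fabp7 (-0.54) reached, and none had an adjusted p under 0.05.

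In late high drinkers against water, 5 of the 34 pathway genes rose and 5 fell at an unadjusted p under 0.05, beside 15.9% of all probes, and none passed the adjusted threshold. By role these were 2 of 12 synthesis genes, 2 of 6 breakdown genes, 1 of 6 transport and partner genes, 2 of 4 other receptors and 3 of 6 Gi/o partners. Dagla differed by 0.27 ± 0.11 (adjusted p = 0.265), Abhd6 by 0.18 ± 0.07 (adjusted p = 0.243) and Abhd12 by -0.18 ± 0.06 (adjusted p = 0.215). The late high pools of Dagla lay between 0.64 and 0.97 and the water pools between 0.40 and 0.61, without overlap. Without late high drinker pool 3 the Dagla difference was 0.16, and with slide as a block it was 0.08. Plcb4 differed by 0.38 ± 0.14 and Fabp7 by -0.91 ± 0.21 (adjusted p = 0.119). With slide as a block, Abhd6 and Plcb4 turned to -0.06 and -0.13, and Fabp7 fell in size to -0.000206. As for Mgll, the 3 late pools lay on slide 3 and the water pools on slide 1, and group and slide cannot be told apart in this contrast beyond what the shared drinker pools allow.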

How the data were processed

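The authors deposited the scanner output of 12 single-dye Agilent arrays, in which Feature Extraction (10.5.1.1 per the file headers) gives the background-corrected intensity of each spot on a linear scale, and a table of the same intensity values per probe. The 2 differed by under 0.1% for 99.6% of values, and no scaling between arrays had been applied. Arrays were scaled by subtracting, from the log2 intensities, the 75th percentile over non-control spots. As in the study's methods, outlier spots and spots with a ratio of signal to noise below 2 were dropped. Using every outlier flag, taking the ratio as signal over its error and averaging the remaining spots of a probe were choices made here. Testing required a value from 2 or more water arrays and from 5 or more alcohol arrays (32371 of 41174 probes), and in the 4-group comparisons also with 2 values in each group (31611).

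Alcohol against water was a 2-group fit and the other comparisons were contrasts of a 4-group fit, by lmFit and eBayes in limma 3.58.1 (R 4.3.3) with Benjamini-Hochberg adjustment over all tested probes. Exact permutation tests over arrays were 2-sided. The smallest p is 0.00455 for 9 arrays against 3, 0.0119 for 6 against 3 and 0.1 for 3 against 3. Since a sample is a pool, p-values measure the spread between pools. Gene names came from the mouse table of GRCm38.p6 for 25097 probes, 3505 of which the files name otherwise, and from the files for the rest. Members, gene lists and tests were chosen with earlier results of these data known. The text names every member probe, a set of pathway genes listed by role and any other gene of that pathway list at an unadjusted p under 0.05 in alcohol against water. Marker lists covered neurons, glia, immune and blood cells, hypothalamus, cortex, striatum, thalamus, pituitary and choroid plexus, 62 genes in all. In alcohol against water 61 of them were tested, and at an unadjusted p under 0.05 2 rose and 2 fell, beside 5.52% of all probes.

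On simulated data with 200 probes moved by 1 on the log2 scale, 155 were recovered at an adjusted p under 0.05 in alcohol against water over 32371 probes, with 11 false calls, and 136 in late against early high drinkers over 31611. The simulation held no slide effect and no change smaller than 1, so it does not tell how often differences as small as most here would be found. No pair of arrays had identical values (r between 0.979 and 0.996). Alternatives covered background correction, scaling, the authors' table, filters, slide, scan day and replicate number as blocks, each array left out, t-tests, the probes of a gene and the arrays in the fit. Figures were drawn with matplotlib 3.10.9. The study's behavior and real-time PCR were not analysed here. A gene among those with profiles most like the members is not reported here.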

Additional observations from a re-analysis of the deposited data

Results flagged for a closer look

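Among the 21 probes of members and named pathway genes checked over the 9 alcohol arrays, no member probe and 3 pathway genes had an array that stood apart from the others by Dixon's criterion (0.493 for 9 arrays). Chance flags about 1 in 20 such groups. Dagla read 0.97 in late high drinker pool 3, with the next array at 0.64. Plcb4 read -1.38 in low drinker pool 1, the alcohol array on slide 1, with the next at -0.94. Naaa read 0.79 in late high drinker pool 1, with the next at 1.11.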

How the results depend on the processing

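The 17 member differences given in the text were recomputed under 433 alternative settings in all. They kept their direction and side of the adjusted threshold in 399 and turned sign in 31. Cnr2 crossed the threshold in 3, among which scan day as a block and leaving out low drinker pool 1 are the same fit in more against less alcohol. The count of member probes at an adjusted p under 0.05 stayed at 0 except without low drinker pool 1 (1 in low drinkers against water and 1 in more against less alcohol, so ranges of 0 to 1) and with scan day as a block, an alternative chosen after seeing the data (1 in more against less alcohol). Over all probes the adjusted count without low drinker pool 1 was 2812 in low drinkers against water (69 as reported) and 2648 in more against less alcohol (7 as reported). Scan day as a block gave 2648 in the latter too, because there it is the same fit as leaving out low drinker pool 1. At an unadjusted p under 0.05 the count of member probes ran from 0 to 1 in alcohol against water, 0 to 4 in low, 0 to 1 in early high and 0 to 2 in late high drinkers against water, 0 to 3 in more against less alcohol and 0 to 2 in late against early high drinkers. Over all probes these counts ran from 513 to 3666, 749 to 6700, 755 to 3504, 2457 to 5935, 2621 to 8323 and 1514 to 5223 (1788, 2864, 1488, 5032, 4647 and 3926 as reported).

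Most turns of sign came with slide or scan day as a block, which by construction rest on low drinker pool 1 for every link to water. In alcohol against water both blocks gave -0.11 for Cnr1, -0.77 for Cnr2, -0.031 for Faah, -0.039 for Mgll, -0.075 for Napepld, -0.21 for Plcb4, 0.048 for Abhd4, 0.0070 for Gde1, -0.044 for Abhd6 and 0.16 for Fabp5. In low drinkers both gave -0.77 for Cnr2, -0.031 for Faah and -0.075 for Napepld. In early high drinkers slide and scan day gave -2.67 and -2.63 for Cnr2 and -0.34 and -0.27 for Napepld. In late high drinkers they gave -0.33 and -0.13 for Napepld and -0.13 and -0.14 for Plcb4, and slide gave -0.026 for Mgll and -0.059 for Abhd6. Fabp5 in alcohol against water was 0.022 with slide as a random block.

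Among the 17 main-probe differences scaling changed 1 sign, that of Faah in late high drinkers against water, which was 0.011 after quantile normalization and 0.12 both without scaling and in the authors' table. Over all 9 member probes more signs turned: in low drinkers against water 8 were above 0 as reported, 5 after quantile normalization and 4 without scaling, and in more against less alcohol 4, 6 and 7. Without scaling the median of all probes shifted from 0.04 to -0.04 in low drinkers against water and from 0.00489 to 0.130 in late high drinkers against water. It shifted from -0.03 to 0.13 in late against early high drinkers and from -0.05 to 0.08 in more against less alcohol. Changes in these comparisons are relative to those shifts. With each array left out in turn, Faah in late high drinkers ranged from -0.079 to 0.051, Mgll in alcohol against water from -0.021 to 0.10, Cnr1 from 0.013 to 0.096, Faah from 0.023 to 0.15, Cnr2 in more against less alcohol from -1.79 to 0.11 (the latter without low drinker pool 2), and in alcohol against water Abhd4 from -0.078 to 0.0073, Naaa from -0.0063 to 0.094 and Fabp5 from -0.16 to 0.22. Cnr1 in early high drinkers against water was called at an unadjusted p under 0.05 without early high drinker pool 3, at 0.31.

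The replicate numbers of the labels did not pair the samples: 3 of 18 same-number pairs correlated above 0.1 (range -0.09 to 0.18). The replicate block gave 1 member probe at an unadjusted p under 0.05 in alcohol against water, beside 1751 of all 32371 probes. This was Napepld at 0.17 (adjusted p in the alternatives from 0.304 to 1.00). The block gave 0 member probes at an adjusted p under 0.05 in any comparison. Dim signal limits Cnr2, Ptgs2 and Fabp5.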

Other observations

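In more against less alcohol, 4 of the 34 pathway genes had an unadjusted p under 0.05, beside 14.7% of all probes, and they are named here after their values were seen. Gnai1, the inhibitory G protein subunit through which CB1 can signal, was higher in the 6 high drinker pools by 0.27 (limma adjusted p = 0.143), and Ppara, a nuclear receptor for anandamide's relatives, by 0.23 (adjusted p = 0.320). Pparg, a nuclear receptor of the same family, differed by -0.20 (adjusted p = 0.214) and Ces1d, a carboxylesterase, by -0.74 (adjusted p = 0.327). Each kept its sign in all 25 alternatives, with ranges of 0.21 to 0.39, 0.02 to 0.36, -0.24 to -0.07 and -1.31 to -0.52. None passed the adjusted threshold with all arrays. In the same comparison all 5 pituitary markers and 2 of 5 striatal markers fell at an unadjusted p under 0.05, and their part in these differences was not tested.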
